A study of Homo sapiens with 8 samples.

Results

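IGR-N91 aggregates exposed to medium conditioned by mouse sympathetic ganglia (E15.5-mSGcm) were compared directly with aggregates exposed to medium conditioned by chick dorsal root ganglia (E8-cDRGcm). The 4 libraries of these media, out of 8 in the series, were taken by their sample titles and column names, 2 for each medium. IGR-N91 is an established human stage 4 neuroblastoma (NB) cell line, and it was grown in hanging drops, where the cells gather into an aggregate. All groups shared the cell line, the hanging drop culture and the library method, and the remaining 4 libraries were 2 in control medium and 2 in medium of chick sympathetic ganglia (E8-cSGcm). The ganglia were taken whole at embryonic stage E8 in chick and E15.5 in mouse, so each medium carries what all cells of the ganglion released. The exposure is given as 20 h with the samples and as 24 h in the series design. Ganglion type, species and stage changed together between both media, so their parts in any difference cannot be told apart. Nothing in the labels says that the 2 libraries of a group came from separate cultures, and p-values then measure only the spread between these libraries.

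Sympathetic neurons make noradrenaline and stem from the same neural crest lineage as NB, while dorsal root ganglia hold sensory neurons, and both ganglia also contain glia and connective tissue cells. Cells answer tumor necrosis factor, interleukin 1 and microbial ligands through NF-kB, a family of transcription factors that are held in the cytoplasm by IkB proteins and induce chemokines, adhesion molecules and their own inhibitors. Cells that run short of amino acids, or whose endoplasmic reticulum (ER) is under load, phosphorylate the initiation factor eIF2, which raises translation of ATF4, a factor that induces amino acid transporters, amino acid synthesis enzymes and tRNA synthetases.

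Total counts were 7930765 and 8937397 in the E15.5-mSGcm libraries and 13508609 and 13990286 in the E8-cDRGcm libraries, so the mouse medium was measured at lower depth. A floor of 3 counts, which covers counting error only, corresponded to a mean of 0.364 CPM (counts scaled to library size with TMM factors) with E15.5-mSGcm and 0.222 CPM with E8-cDRGcm. Replicate libraries correlated across genes, which are not independent replicates, with r of 0.989 for E15.5-mSGcm and 0.993 for E8-cDRGcm. Of 12 NB identity markers, 11 passed the filter on low counts, and CHGA was listed at 0 in all 8 libraries. Of these 11, 3 were called higher and 1 lower in E15.5-mSGcm, with a median log2 fold change of 0.36. That is 36.4% called, against 26.2% over all tested genes. MYCN, the amplified oncogene of NB, was at 2704 and 2573 CPM with E15.5-mSGcm and 2434 and 2558 CPM with E8-cDRGcm, and was not called. Macrophage, endothelial and erythroid markers did not pass the filter in any case. Of 7 Schwann and glial markers 1 passed the filter and was not called. It was at 0.384 and 0.457 CPM with E15.5-mSGcm and 0.449 and 0.879 CPM with E8-cDRGcm. SOX10, which marks Schwann cells, was listed at 0 in the 4 libraries. A count of 0 was not read as absence in general, since genes that every cell uses, such as RPS9, RPS18 and VARS1, were also listed at 0 in all 8 libraries. In bulk samples, fewer cells of a type and less RNA per cell cannot be told apart.

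The distance between 2 media was taken as the root mean square (RMS) difference of their mean log2 CPM over the 16680 genes tested. It was 0.781 between E15.5-mSGcm and E8-cDRGcm, with a range of 0.815 to 0.829 over the 4 pairs of single libraries. The other pairs of media lay between 0.412, for both chick media, and 0.713, for both sympathetic media. Replicate libraries of E8-cDRGcm were 0.320 apart and those of E15.5-mSGcm 0.392 apart. This pair of media was chosen for its distance, which is therefore a description, and it ranked first of 6 pairs under each of 10 settings. Every distance between media was larger than every distance between replicates, as the plot of the distances shows.

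**Figure D1:**
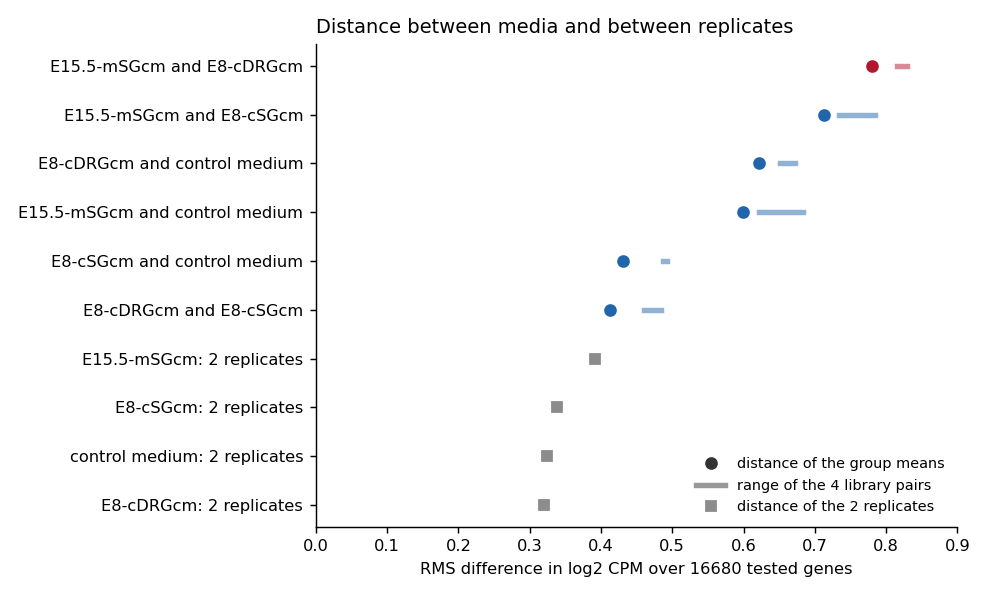
RMS difference in log2 CPM over 16680 tested genes (x axis) for each pair of media and for replicate libraries. Circles are distances of group means, bars the range of the 4 pairs of single libraries, and squares the 2 replicates of a group. E15.5-mSGcm and E8-cDRGcm lie farthest apart at 0.781, and replicates lie 0.320 to 0.392 apart.

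Calls needed both an adjusted p below 0.05 in edgeR's quasi-likelihood test and a difference of 1.5-fold or more, and fold changes are given as E15.5-mSGcm over E8-cDRGcm on the log2 scale. Of the tested genes, 2179 were higher and 2189 lower in E15.5-mSGcm, which is 26.2% called, or 13.1% in each direction. By adjusted p alone 52.6% passed. The 4 libraries were without overlap between the media for 74.9% of the tested genes. With 2 libraries against 2 an exact permutation test of a single gene cannot go below p = 0.333, so the calls rest on the spread that edgeR pooled over genes. The same rule called 22.3% of genes between E15.5-mSGcm and E8-cSGcm and 7.49% between E8-cSGcm and E8-cDRGcm, and these comparisons share libraries. The distance was spread over many genes: the 10 with the largest squared difference held 3.89% of the summed squared difference, the largest 100 held 16.1%, and 861 genes were needed to reach 50%. Called genes held 83.5%, of which genes higher in E15.5-mSGcm made up 45.6 points and lower genes 37.9 points. The spread between replicates of these 4 libraries amounted to 10.5% of the summed squared difference.

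Genes were then grouped into 52 lists by function and by biotype. Protein-coding genes held 76.2% of the squared distance and 74.2% of the tested genes. Long non-coding RNA (lncRNA) genes leaned to the mouse medium, with 387 higher and 102 lower of 1772 and a median log2 fold change of 0.32 against -0.00 over all tested genes. Among 2074 pseudogenes, 151 were higher and 161 lower, and their share of the distance, 7.11%, was smaller than their share of genes, 12.4%. The 1072 tested genes on any functional list made up 6.43% of genes and 14.2% of the distance, a ratio of 2.21.

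**Figure D2:**
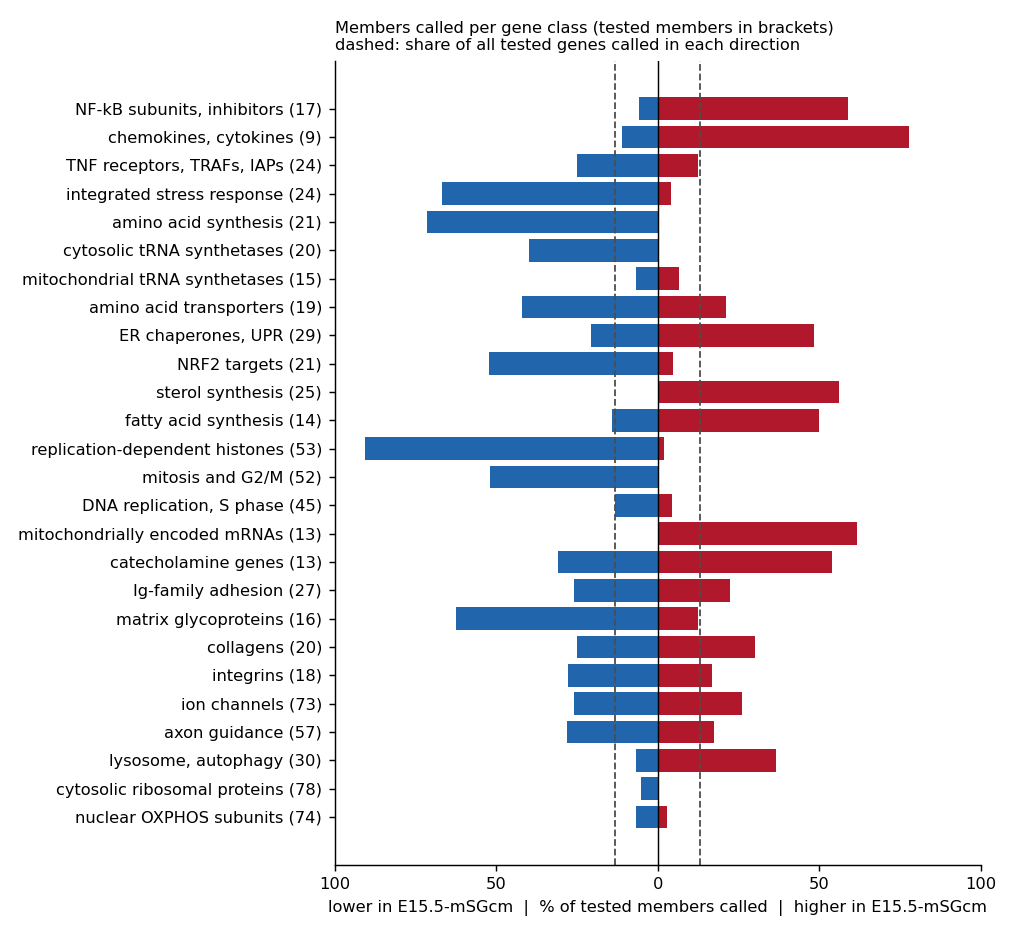
Percent of tested members called lower (blue, left) and higher (red, right) in E15.5-mSGcm than in E8-cDRGcm for 26 gene classes, with dashed lines at the 13.1% called in each direction over all tested genes. Replication-dependent histones reach 90.6% lower, and chemokines and cytokines 77.8% higher. The latter share rests on 9 tested genes, among them CCL2, which passed the filter through E15.5-mSGcm alone.

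Per gene, chemokines and cytokines weighed most, with 1.26% of the distance on 0.054% of the genes, a ratio of 23.3. Fibroblast markers, with 7 tested genes, had a ratio of 7.96. Replication-dependent histones followed with 2.41% of the distance and a ratio of 7.58, then adhesion molecules of the immunoglobulin (Ig) family (6), regulators of the integrated stress response (5.64), mesenchymal transcription factors (4.33), catecholamine genes (3.64) and NF-kB subunits with their inhibitors (3.44). At the other end, nuclear subunits of oxidative phosphorylation (OXPHOS) had a ratio of 0.176, mitochondrial tRNA synthetases 0.187 and cytosolic ribosomal proteins 0.201. With only genes of at least 10 counts in every library, which leaves out genes near 0 in 1 medium, the shares of the distance were 0.0871% for cytokines, 0.223% for Ig adhesion molecules, 0.101% for mesenchymal factors and 4.45% for histones, so this order depends on the filter. CCL2 alone held 0.534% of the distance, and PRRX1 0.310% out of 0.389% for the mesenchymal factors. With all tested genes, nuclear OXPHOS subunits, mitochondrial tRNA synthetases and cytosolic ribosomal proteins held less than their share of the distance. Cytosolic tRNA synthetases were near their share (0.973), and mitochondrially encoded mRNAs held more (2.92). Several secreted, surface and stress response classes held more as well, as the plot of these ratios shows.

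**Figure D3:**
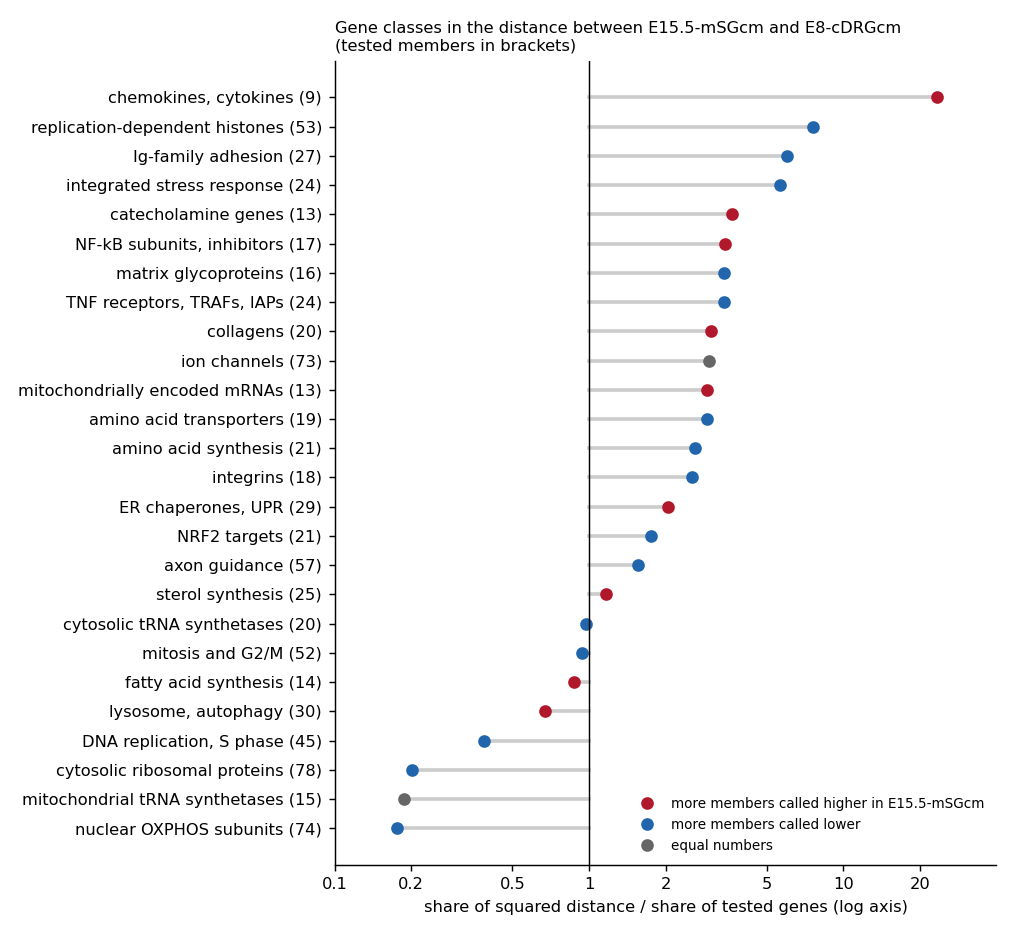
Share of the squared distance between E15.5-mSGcm and E8-cDRGcm divided by the share of tested genes (x axis, log scale; 1 is an equal share) for 26 gene classes. Red, blue and grey points are classes with more members called higher in E15.5-mSGcm, more called lower, or equal numbers. The ratio runs from 0.176 for nuclear OXPHOS subunits to 23.3 for chemokines and cytokines.

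NF-kB genes were higher in aggregates exposed to E15.5-mSGcm. Of 17 tested subunits and inhibitors, 10 were higher and 1 was lower, where 13.1% of all tested genes were called in each direction, and the median log2 fold change was 1.01. NFKBIA, which encodes the inhibitor IkB-alpha, was at 222 and 229 CPM with E15.5-mSGcm and 33.1 and 35.2 CPM with E8-cDRGcm (log2 fold change 2.72, SE 0.07, edgeR adjusted p = 1.6e-27). NFKBIZ, an atypical nuclear IkB protein, was at 42.1 and 38.5 CPM against 6.66 and 5.79 CPM (log2 fold change 2.69 ± 0.13 SE, adjusted p = 2.5e-19). Both libraries of the mouse medium thus held more than 5 times the level of either E8-cDRGcm library for both genes. NFKB1, which encodes the p105 precursor of p50, was at 107 and 106 CPM against 33.3 and 37.4 CPM (log2 fold change 1.59 ± 0.08 SE, adjusted p = 1.7e-19). CYLD, a deubiquitinase that restrains the pathway, was at 84.2 and 90.7 CPM against 43.5 and 40.3 CPM (log2 fold change 1.06 ± 0.07 SE, adjusted p = 7.4e-15). Both genes moved by less than NFKBIA and NFKBIZ. RELA, NFKB2, TNFAIP3 and IKBKG were chosen after their values had been seen. RELA, the p65 subunit, was at 59.3 and 60.5 CPM against 57.8 and 57.9 CPM (log2 fold change 0.05 ± 0.07 SE, adjusted p = 0.577). NFKB2 reached 73.8 and 92.2 CPM with E15.5-mSGcm and 63.9 and 62.8 CPM with E8-cDRGcm, a log2 fold change of 0.39 that was below the fold threshold. TNFAIP3, the ubiquitin editor A20, held 11 and 29 counts with E15.5-mSGcm and 1 and 2 counts with E8-cDRGcm, a ratio of 21.8 with a 95% counting interval of 6.93 to 109.9. IKBKG, the regulatory subunit of the kinase of IkB, was the 1 member called lower (1.02 and 1.94 CPM against 2.32 and 3.74 CPM, log2 fold change -1.004, SE 0.36, edgeR adjusted p = 0.0188). No member was called lower without E8-cDRGcm replicate 2, with DESeq2, with a filter of 10 counts in every library or with a correction for GC content and length.

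Against the control libraries, which both contrasts share, the median of the NF-kB list was 1.41 for E15.5-mSGcm and 0.21 for E8-cDRGcm. NFKBIA was at 29.5 and 34.7 CPM in control medium and 24.4 and 24.2 CPM in E8-cSGcm, and NFKBIZ at 3.52 and 4.67 CPM in control medium and 4.89 and 4.9 CPM in E8-cSGcm. For NFKBIA and NFKBIZ the E15.5-mSGcm libraries alone stood apart among the 8. NFKB2 differed from this pattern, at 19.3 and 20.1 CPM in control medium against 63.9 and 62.8 CPM with E8-cDRGcm.

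Promoter windows of 300 bases, from 250 before to 50 after the start of a transcript, were searched on both strands for the kappa B decamer, the consensus that NF-kB dimers bind. The windows come from RefSeq on GRCh38.p14 and were found for 10811 tested genes. The stretches that follow are shown because they stand before genes that the comparison called higher. They run 5′ to 3′ in the sense of the gene, and capitals mark the decamer match. The decamer is GGGRNNYYCC, with R for A or G, Y for C or T and N for any base. In BIRC3, NFKBIA and CYLD the match shown reads on the opposite strand.
BIRC3 (chr11:102317275-102317304, + strand): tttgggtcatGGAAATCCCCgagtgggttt
BIRC3 (chr11:102317339-102317368, + strand): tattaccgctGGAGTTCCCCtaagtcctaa
TNFRSF9 (chr1:7940894-7940923, - strand): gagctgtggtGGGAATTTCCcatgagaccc
NFKBIA (chr14:35404811-35404840, - strand): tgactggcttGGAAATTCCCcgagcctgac
NFKBIZ (chr3:101827757-101827786, + strand): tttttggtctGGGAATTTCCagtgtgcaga
NFKB1 (chr4:102501300-102501329, + strand): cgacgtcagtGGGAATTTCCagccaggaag
CYLD (chr16:50741887-50741916, + strand): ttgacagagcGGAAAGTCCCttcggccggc
The same 10 letters, GGGAATTTCC, occur before TNFRSF9, NFKBIZ and NFKB1, and these matches begin between 49 and 223 bases upstream of the start for these 3 genes. Among members of the NF-kB, cytokine and TNF receptor lists with a window, 12 of 13 that were called higher held the decamer (92.3%), 6 of 17 that were not called (35.3%) and 0 of 5 that were called lower. The decamer occurred in 17.3% of all tested genes with a window, in 17.5% of those called higher and in 19.2% of those called lower. Many list members are textbook NF-kB targets, so their matches are a description. CCL2, CX3CL1, CSF1 and NGFR had no window in the table.

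Chemokines and cytokines included the largest difference among protein-coding genes of at least 50 mean counts, that of CCL2. Of 32 listed genes 31 were matched and 9 passed the filter, of which 7 were higher and 1 was lower, with a median log2 fold change of 1.82. The other 22 were left out for low counts. A gene could pass the filter through the medium where it is high, as CCL2 did through E15.5-mSGcm. The share of members called higher is therefore set in part by the filter. With a filter of 10 counts in every library 2 higher members were left. Without E15.5-mSGcm replicate 2 the list had 3 higher members. TNF, IL6 and IL1B were listed at 0 in all 8 libraries. CCL2, the monocyte chemoattractant MCP-1, had 210 and 232 counts with E15.5-mSGcm (26.9 and 26.5 CPM) and 0 and 0 counts with E8-cDRGcm. Against the floor of 3 counts per library CCL2 was at least 120.2-fold higher in the mouse medium (edgeR adjusted p = 4.5e-21), and control medium held 0.153 and 0 CPM. CX3CL1 (fractalkine), a membrane-bound chemokine, was at 62.3 and 68.1 CPM with E15.5-mSGcm and 21.8 and 22 CPM with E8-cDRGcm (log2 fold change 1.57, SE 0.09, edgeR adjusted p = 1.0e-17). CSF1, the macrophage growth factor, was at 19.7 and 21.6 CPM against 8.08 and 6.59 CPM (log2 fold change 1.496 ± 0.15 SE, adjusted p = 5.7e-11). In both genes the lowest E15.5-mSGcm library exceeded the highest E8-cDRGcm library by more than 2 times. The remaining higher members, CXCL10, IL32, C3 and LIF, were low, with no library above 2.06 CPM, and are named after their values had been seen. CXCL12, a homeostatic chemokine and no member of the list, held 111 and 123 counts (14.2 and 14.1 CPM) against 0 and 1, a ratio of 382 with a 95% counting interval of 67.9 to 15146.

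IL11, an interleukin of the gp130 family, ran the other way. Its counts were 0 and 3 with E15.5-mSGcm and 231 and 228 with E8-cDRGcm (17.2 and 16.8 CPM), a ratio of 93.8 with a 95% counting interval of 31.9 to 456, in favour of E8-cDRGcm. Control medium held 0.382 and 0.526 CPM and E8-cSGcm 0.882 and 1.75 CPM, so the E8-cDRGcm libraries were the only ones above 2 CPM.

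Adhesion molecules that NF-kB is known to induce were among the largest differences of the Ig family. ICAM1, a ligand of leukocyte integrins, had 251 and 279 counts (32.2 and 31.9 CPM) with E15.5-mSGcm and 0 and 1 counts with E8-cDRGcm, a ratio of 865 with a 95% counting interval of 155 to 34225. It was at 0 in the control and E8-cSGcm libraries. VCAM1, named here after its values had been seen, was at 7.56 and 7.65 CPM with E15.5-mSGcm and 0 and 0.513 CPM with E8-cDRGcm (log2 fold change 4.82, SE 0.47, edgeR adjusted p = 1.6e-10). Other members moved by less, with CADM1 at 487 and 506 CPM against 211 and 202 CPM (log2 fold change 1.26 ± 0.05 SE, adjusted p = 2.3e-22) and JAM2 at 136 and 134 CPM against 53.2 and 53.7 CPM (log2 fold change 1.34 ± 0.06 SE, adjusted p = 8.3e-20). NECTIN2, a nectin that is also a ligand of receptors on natural killer cells, was lower (21.5 and 23 CPM against 62.1 and 61 CPM, log2 fold change -1.47, SE 0.09, edgeR adjusted p = 1.3e-16). Over the 27 tested members 6 were higher and 7 lower, with a median of -0.23. ICAM1 alone held 0.533% of the squared distance, out of 0.972% for the class.

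TNF receptors and their adaptors were split. Of 24 tested members 3 were higher and 6 lower, and the median was -0.14. TNFRSF9 (4-1BB), a costimulatory receptor, was at 57.5 and 65.3 CPM with E15.5-mSGcm and 6.73 and 5.57 CPM with E8-cDRGcm (log2 fold change 3.32, SE 0.13, edgeR adjusted p = 9.1e-23). BIRC3, which encodes the ubiquitin ligase cIAP2, was at 30.5 and 28 CPM against 1.72 and 1.245 CPM (log2 fold change 4.29 ± 0.19 SE, adjusted p = 1.2e-20). Levels of BIRC3 in control medium were 3.9 and 3.68 CPM, above both E8-cDRGcm libraries, whereas TNFRSF9 was at 0.612 and 0.395 CPM there, below them. NGFR, the low-affinity neurotrophin receptor p75, was at 5.25 and 7.08 CPM against 53.8 and 54.5 CPM (log2 fold change -3.12 ± 0.12 SE, adjusted p = 3.6e-22). TNFRSF1A, the main receptor of TNF, was at 45.7 and 43.1 CPM against 82.1 and 87.2 CPM (log2 fold change -0.93 ± 0.08 SE, adjusted p = 3.0e-13). For NGFR the control libraries, at 18.4 and 18.4 CPM, lay between the media. The 3 lists together (50 tested genes) had 20 higher and 8 lower members and held 2.1% of the squared distance. The plot of single genes shows all 8 libraries for the genes of these paragraphs.

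**Figure D4:**
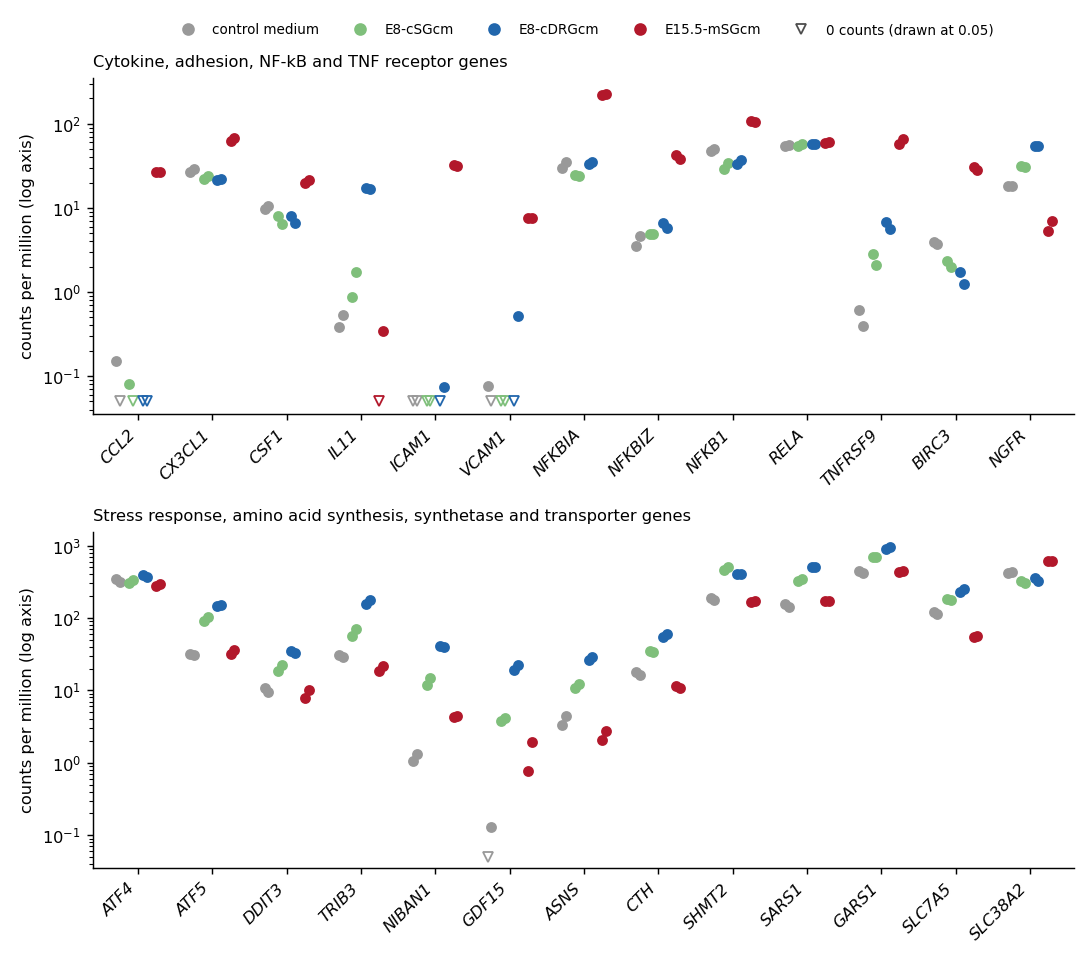
CPM of each library (y axis, log scale) for 13 cytokine, adhesion, NF-kB and TNF receptor genes (upper panel) and 13 stress response and amino acid genes (lower panel). Each point is 1 library, 2 per medium, and open triangles mark 0 counts, drawn at 0.05. In the upper panel the E15.5-mSGcm libraries (red) stand above the others for most genes and below them for IL11 and NGFR. In the lower panel the E8-cDRGcm libraries (blue) are highest except for SHMT2 and SLC38A2.

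Genes of the integrated stress response were lower in E15.5-mSGcm. Of 24 tested regulators 16 were lower and 1 higher, with a median log2 fold change of -1.06. TRIB3, a pseudokinase induced by ATF4, was at 18.7 and 21.7 CPM with E15.5-mSGcm and 158 and 175 CPM with E8-cDRGcm (log2 fold change -3.04, SE 0.10, edgeR adjusted p = 1.9e-16). NIBAN1, a stress-induced survival factor, was at 4.23 and 4.46 CPM against 41.7 and 40.2 CPM (log2 fold change -3.23 ± 0.15 SE, adjusted p = 2.7e-20). ATF5, a relative of ATF4, was at 31.5 and 36.3 CPM against 148 and 150.3 CPM (log2 fold change -2.13 ± 0.08 SE, adjusted p = 1.7e-23). For these 3 genes each E8-cDRGcm library held more than 4 times the level of each E15.5-mSGcm library. GDF15, a stress-induced TGF-beta family hormone, was at 0.769 and 1.94 CPM against 19.2 and 22.6 CPM (log2 fold change -3.91 ± 0.25 SE, adjusted p = 3.1e-16). INHBE, an activin subunit, was at 11.8 and 13.6 CPM against 51.9 and 54 CPM (log2 fold change -2.06 ± 0.11 SE, adjusted p = 1.2e-18). DDIT3, FGF21, CEBPB, PPP1R15A, ATF4 and EIF2AK3 were chosen after their values had been seen. DDIT3, the factor CHOP, was at 7.94 and 10.1 CPM against 35.5 and 32.4 CPM (log2 fold change -1.90 ± 0.13 SE, adjusted p = 6.4e-15). FGF21, a secreted hormone of fasting, had 0 and 0 counts with E15.5-mSGcm and 11 and 12 with E8-cDRGcm, which against the floor of 3 counts per library was at least 2.34-fold lower. CEBPB, a C/EBP factor, and PPP1R15A, which restores eIF2, were lower by log2 fold changes of -1.12 and -1.20. ATF4 itself, which is governed mainly at translation, was at 273 and 292 CPM with E15.5-mSGcm and 392 and 374 CPM with E8-cDRGcm, a log2 fold change of -0.44 that stayed below the fold threshold. EIF2AK3, the ER stress kinase PERK, was the only member called higher (73.8 and 80.3 CPM against 41.8 and 38.2 CPM, log2 fold change 0.95, SE 0.08, edgeR adjusted p = 6.3e-13).

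Most of this difference lay on the side of E8-cDRGcm. Against the shared control libraries the median of the stress response list was -0.13 for E15.5-mSGcm and 0.73 for E8-cDRGcm. NIBAN1 was at 1.07 and 1.32 CPM in control medium, below both media. TRIB3 was at 30.6 and 28.8 CPM there, and ATF5 at 31.6 and 30.8 CPM, nearer to E15.5-mSGcm than to E8-cDRGcm. E8-cSGcm stood between the media for these genes, with TRIB3 at 56.4 and 71.2 CPM and ATF5 at 91.5 and 103 CPM. The median of the list was -0.51 for E15.5-mSGcm over E8-cSGcm and -0.36 for E8-cSGcm over E8-cDRGcm.

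Enzymes that make amino acids followed the same direction. Of 21 tested genes of serine, one-carbon, asparagine and proline synthesis 15 were lower in E15.5-mSGcm and 0 higher, with a median of -0.98. ASNS, asparagine synthetase, was at 2.05 and 2.74 CPM with E15.5-mSGcm and 26.6 and 28.9 CPM with E8-cDRGcm (log2 fold change -3.52, SE 0.19, edgeR adjusted p = 1.8e-18). CTH, which makes cysteine from cystathionine, was at 11.7 and 10.9 CPM against 54.4 and 60.4 CPM (log2 fold change -2.35 ± 0.11 SE, adjusted p = 3.2e-20). GPT2, a mitochondrial alanine aminotransferase, was at 71.1 and 75.4 CPM against 238 and 244 CPM (log2 fold change -1.72 ± 0.07 SE, adjusted p = 3.7e-21). The difference of ASNS was the largest of the 21. SHMT2, the mitochondrial serine hydroxymethyltransferase, was at 164 and 172 CPM against 399 and 399 CPM (log2 fold change -1.249 ± 0.05 SE, adjusted p = 4.0e-21). Its difference was smaller than those of ASNS and CTH. Its levels in E8-cSGcm, 465 and 499 CPM, were above those in E8-cDRGcm, unlike ASNS (10.8 and 12.2 CPM). Median changes against the shared control were -0.15 for E15.5-mSGcm and 0.89 for E8-cDRGcm.

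Cytosolic tRNA synthetases, which load amino acids onto tRNAs, had 8 lower and 0 higher genes of 20, with a median of -0.37. SARS1, for serine, was at 169 and 169 CPM with E15.5-mSGcm and 501 and 499.7 CPM with E8-cDRGcm (log2 fold change -1.56, SE 0.05, edgeR adjusted p = 5.1e-24). YARS1, for tyrosine, was at 154 and 149 CPM against 408 and 408 CPM (log2 fold change -1.43 ± 0.05 SE, adjusted p = 5.2e-23). GARS1, for glycine, was at 436 and 443 CPM against 901 and 943 CPM (log2 fold change -1.07 ± 0.05 SE, adjusted p = 1.8e-20). Log2 fold changes of the called members ran from -1.56 in SARS1 to -0.93 in MARS1, and those of the others from -0.39 in IARS1 to 0.32 in RARS1, the ends of both ranges being named after their values had been seen. Mitochondrial tRNA synthetases, which serve translation in mitochondria, had 1 higher and 1 lower gene of 15 and a median of -0.03. With 1 library left out the counts were 0 or 1 higher and 1 or 2 lower.

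Amino acid transporters were divided, with 8 lower and 4 higher of 19 and a median of 0.04. SLC7A5, the light chain of the LAT1 exchanger for large neutral amino acids, was at 54.7 and 56.7 CPM with E15.5-mSGcm and 228 and 250.2 CPM with E8-cDRGcm (log2 fold change -2.10, SE 0.06, edgeR adjusted p = 1.5e-25). SLC3A2, its heavy chain, was at 83.8 and 88.9 CPM against 198 and 202 CPM (log2 fold change -1.21 ± 0.06 SE, adjusted p = 4.7e-19). SLC1A5, a transporter of glutamine and other neutral amino acids, was at 225 and 222 CPM against 618 and 650.1 CPM (log2 fold change -1.51 ± 0.05 SE, adjusted p = 3.1e-24). Both chains of LAT1 were thus lower together. SLC38A2, a sodium-coupled transporter of neutral amino acids, was higher (606 and 613 CPM against 355 and 325 CPM, log2 fold change 0.84, SE 0.05, edgeR adjusted p = 5.9e-17). The 4 amino acid and stress response lists, 84 tested genes, had 47 lower and 5 higher members and held 1.59% of the squared distance on 0.504% of the genes.

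The nonamer TGATGNAAN, in which N is any base, is the core that ATF4 binds together with a C/EBP partner. It was searched in the same windows on both strands, and the stretches shown stand before genes called lower in E15.5-mSGcm, with the match in capitals.
ASNS (chr7:97872458-97872486, - strand): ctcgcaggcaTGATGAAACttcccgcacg
SLC1A5 (chr19:46784893-46784921, - strand): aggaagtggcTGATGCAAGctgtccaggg
GARS1 (chr7:30594834-30594862, + strand): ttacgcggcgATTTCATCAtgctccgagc
SLC3A2 (chr11:62881725-62881748, + strand): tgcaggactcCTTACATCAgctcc
In GARS1 and SLC3A2 the nonamer reads on the opposite strand, and in SLC3A2 it lies at positions 37 to 45 of the transcript. Among members of the 4 lists with a window, 14 of 35 called lower held a match, 6 of 26 not called and 1 of 5 called higher. It occurred in 2.72% of all tested genes with a window and in 3.19% of all those called lower. The lists hold gene families that ATF4 is known to induce, and 31.8% of their tested members held a match, so the matches are a description. No match was found in the windows of TRIB3, ATF5, NIBAN1, CTH, SLC7A5, GDF15, SARS1, WARS1 and MTHFD2, nor in that of SLC38A2, which was called higher. This says only that these letters are not in them. SHMT2, YARS1, GPT2 and INHBE had no window in the table.

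Chaperones of the ER were higher in E15.5-mSGcm, while several of the sensors and factors that govern them were lower. Of 29 tested genes 14 were higher and 6 lower, with a median of 0.43. DNAJB11, a cochaperone, was at 137 and 134 CPM with E15.5-mSGcm and 51.6 and 48.8 CPM with E8-cDRGcm (log2 fold change 1.43, SE 0.06, edgeR adjusted p = 1.3e-20). PDIA6, a disulfide isomerase, was at 521 and 525 CPM against 212 and 224 CPM (log2 fold change 1.26 ± 0.05 SE, adjusted p = 1.9e-22). CALR (calreticulin), a lectin chaperone, was at 1714 and 1799 CPM against 837 and 825 CPM (log2 fold change 1.08 ± 0.05 SE, adjusted p = 7.5e-21). HSPA5 (BiP), the main HSP70 chaperone of the ER, was also named after its values had been seen and was at 1296 and 1412 CPM against 564 and 500.2 CPM (log2 fold change 1.35 ± 0.06 SE, adjusted p = 7.7e-18). MANF, a secreted ER protein, was also higher (247 and 259.9 against 107 and 108 CPM, log2 fold change 1.23). The 6 lower members were CREB3L1, ERN1, EDEM1, ATF6, XBP1 and HERPUD1, which lie outside the naming rule as well. ERN1, the sensor kinase IRE1, was at 10.4 and 11.3 CPM against 49.4 and 48.7 CPM (log2 fold change -2.17 ± 0.11 SE, adjusted p = 3.8e-19). XBP1, the factor whose mRNA IRE1 splices, was at 188 and 197 CPM against 295 and 304 CPM (log2 fold change -0.64 ± 0.05 SE, adjusted p = 4.9e-13). Against the shared control the median of the list was 0.28 for E15.5-mSGcm and -0.18 for E8-cDRGcm. PDIA6 was at 313 and 313 CPM in control medium, between both media, and DNAJB11 at 94.4 and 99.7 CPM, also between them.

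Sterol synthesis genes were higher in E15.5-mSGcm. Of 25 tested members 14 were higher and 0 lower, with a median of 0.78. IDI1, isopentenyl diphosphate isomerase, was at 303 and 286 CPM with E15.5-mSGcm and 101 and 90.5 CPM with E8-cDRGcm (log2 fold change 1.62, SE 0.06, edgeR adjusted p = 1.8e-23). HMGCS1, which forms HMG-CoA, was at 359 and 334 CPM against 153 and 134 CPM (log2 fold change 1.27 ± 0.06 SE, adjusted p = 1.7e-20). STARD4, a carrier of cholesterol, was at 256 and 236 CPM against 112 and 106 CPM (log2 fold change 1.18 ± 0.06 SE, adjusted p = 1.2e-19). In each of these 3 genes both E15.5-mSGcm libraries held more than 2 times the level of the E8-cDRGcm libraries. Fatty acid synthesis had 7 higher and 2 lower genes of 14, and the desaturases FADS2 (425 and 421 against 212 and 209 CPM, log2 fold change 1.01) and SCD (479 and 455 against 283 and 272 CPM, log2 fold change 0.75) were among the higher. Medians against the shared control were 0.35 for E15.5-mSGcm and -0.25 for E8-cDRGcm in the sterol list, and 0.05 and -0.31 in the fatty acid list.

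Replication-dependent histone genes, whose mRNAs end in a stem-loop and accumulate in S phase, formed the class of more than 5 members with the highest share of calls. Of 53 tested genes 48 were lower in E15.5-mSGcm (90.6%, against 13.1% over all genes) and 1 was higher, with a median log2 fold change of -2.23. H4C9 was at 9.22 and 9.6 CPM with E15.5-mSGcm and 86.8 and 96.1 CPM with E8-cDRGcm (log2 fold change -3.28, SE 0.11, edgeR adjusted p = 1.5e-24). H3C7 was at 10.9 and 12.5 CPM against 73.4 and 85.8 CPM (log2 fold change -2.76 ± 0.10 SE, adjusted p = 7.6e-23). Control medium held 103 and 95.1 CPM of H4C9 and E8-cSGcm 102 and 115 CPM, so that the E15.5-mSGcm libraries stood apart from the other 6. The class median was -2.35 for E15.5-mSGcm and -0.18 for E8-cDRGcm against the shared control, and -2.31 for E15.5-mSGcm against E8-cSGcm. Histone genes are near-identical copies, so reads may be divided among them and the value of a single gene is uncertain. The summed CPM of the list was 1627 and 1634 with E15.5-mSGcm and 6520.0 and 7677 with E8-cDRGcm.

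Genes of mitosis were also lower, by less. Of 52 tested members 27 were lower and 0 higher, with a median of -0.61. TPX2, which assembles the spindle, was at 176 and 186 CPM with E15.5-mSGcm and 525 and 524 CPM with E8-cDRGcm (log2 fold change -1.53, SE 0.05, edgeR adjusted p = 2.9e-24). CDK1, the mitotic kinase, was at 68.5 and 68.1 CPM against 166 and 156 CPM (log2 fold change -1.24 ± 0.06 SE, adjusted p = 3.9e-19). KIF2C, a microtubule depolymerase at the kinetochore, was at 61.7 and 59.6 CPM against 150.1 and 143 CPM (log2 fold change -1.27 ± 0.06 SE, adjusted p = 4.6e-19). These genes differed by more than 2 times between any pair of libraries from both media. CCNA2, a cyclin of S phase and G2, was lower as well (85.3 and 83.2 against 181 and 185 CPM, log2 fold change -1.12). DNA replication genes, by contrast, had 6 lower and 2 higher members of 45 and a median of -0.08. RRM2, a ribonucleotide reductase subunit, was lower (28.1 and 31 against 58 and 59.5 CPM, log2 fold change -0.99), and MCM3, a helicase subunit, was higher (163 and 166 against 111 and 103 CPM, log2 fold change 0.62), with a call that was lost under other settings. CCND1, which encodes cyclin D1, was higher with E15.5-mSGcm (982 and 919 CPM against 357 and 343 CPM, log2 fold change 1.44, SE 0.05, edgeR adjusted p = 5.6e-24), and control medium held more than both media (1404 and 1429.6 CPM). Against the shared control the mitosis median was -0.27 for E15.5-mSGcm and 0.31 for E8-cDRGcm. The DNA replication median lay below control with both media, at -0.37 for E15.5-mSGcm and -0.25 for E8-cDRGcm. Called lower than in control were 12 and 5 of its members, and 0 were called higher. For E15.5-mSGcm over E8-cSGcm its median was -0.50.

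Mitochondrially encoded mRNAs were higher in E15.5-mSGcm, with 8 of 13 called and a median of 1.39. MT-CYB was at 2040.4 and 1872 CPM with E15.5-mSGcm and 396 and 479 CPM with E8-cDRGcm (log2 fold change 2.16, SE 0.18, edgeR adjusted p = 6.3e-04). MT-ATP8 was at 1045 and 957 CPM against 225 and 274 CPM (log2 fold change 2.00 ± 0.20 SE, adjusted p = 0.00116). The 13 mRNAs summed to 33747 and 30809 CPM with E15.5-mSGcm and 16382 and 21114 CPM with E8-cDRGcm, so the 2 E8-cDRGcm libraries differed among themselves. Nuclear OXPHOS subunits had 2 higher and 5 lower members of 74, with a median of -0.09, and 1 higher member without E15.5-mSGcm replicate 1 or E8-cDRGcm replicate 2. Cytosolic ribosomal proteins had 0 higher and 4 lower of 78, with a median of -0.30, and 2 lower without E8-cDRGcm replicate 2.

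Catecholamine genes included members called in both directions. Of 13 tested members 7 were higher and 4 lower, with a median of 0.70. The lower members were 2 without E15.5-mSGcm replicate 2 and 1 with a filter of 10 counts in every library, which leaves out low genes, while the higher members were 7 under every alternative. DBH, which converts dopamine to noradrenaline, was at 48.4 and 55.2 CPM with E15.5-mSGcm and 9.2 and 10.04 CPM with E8-cDRGcm (log2 fold change 2.43, SE 0.11, edgeR adjusted p = 8.2e-21). CYB561, the cytochrome that supplies electrons to DBH, was at 50.7 and 47.5 CPM against 14.8 and 18.8 CPM (log2 fold change 1.54 ± 0.10 SE, adjusted p = 2.5e-16). DDC, the decarboxylase that makes dopamine, was at 45.6 and 42.5 CPM against 20.0 and 20.8 CPM (log2 fold change 1.11 ± 0.09 SE, adjusted p = 8.1e-13). TH, the rate-limiting enzyme of the pathway, ran the other way, at 1.15 and 1.03 CPM against 5.46 and 7.03 CPM (log2 fold change -2.51 ± 0.30 SE, adjusted p = 4.2e-09). The first enzyme of the route and the last one thus differed in opposite directions. SLC18A2, the vesicular transporter VMAT2, was named after its values had been seen and was at 0.769 and 1.03 CPM against 8.53 and 8.42 CPM (log2 fold change -3.21 ± 0.31 SE, adjusted p = 2.5e-11). The noradrenaline uptake carrier SLC6A2 was higher than with E8-cDRGcm (69.9 and 60.4 against 32.8 and 32.1 CPM, log2 fold change 1.004), yet below control medium (149 and 155 CPM) with both media. The list medians against the shared control were -0.40 for E15.5-mSGcm and -0.65 for E8-cDRGcm.

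Of the transcription factors of the noradrenergic (NOR) state, which NB cells share with sympathetic neuroblasts, few passed the call. Among 11 tested factors 1 was higher and 0 lower, with 2 higher without E15.5-mSGcm replicate 2. ISL1, a LIM homeodomain factor, was at 138 and 126 CPM with E15.5-mSGcm and 80.9 and 76.1 CPM with E8-cDRGcm (log2 fold change 0.75, SE 0.06, edgeR adjusted p = 6.9e-13). PHOX2A, HAND2 and GATA3 had log2 fold changes of 0.54, -0.49 and -0.21 and stayed below the fold threshold. Factors of the mesenchymal (MES) state were divided, with 3 higher and 3 lower of 15. PRRX1, a homeobox gene of that state, was at 13.6 and 16.6 CPM against 0.15 and 0.146 CPM (log2 fold change 6.58 ± 0.43 SE, adjusted p = 1.8e-14). FOSL2, an AP-1 subunit, was at 69.7 and 73.2 CPM against 149 and 155 CPM (log2 fold change -1.09 ± 0.06 SE, adjusted p = 1.9e-17). FOSL1, another AP-1 subunit, was at 1.67 and 3.2 CPM against 7.4 and 7.25 CPM (log2 fold change -1.56 ± 0.26 SE, adjusted p = 3.5e-06). PRRX1 was under 1 CPM in each of the other 6 libraries, while FOSL1 and FOSL2 were highest with E8-cDRGcm.

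Matrix glycoproteins were mostly lower in E15.5-mSGcm, with 10 lower and 2 higher of 16 and a median of -0.67. NID1 (nidogen), a linker of basement membranes, was at 22.3 and 24.4 CPM with E15.5-mSGcm and 104 and 104 CPM with E8-cDRGcm (log2 fold change -2.14, SE 0.08, edgeR adjusted p = 7.4e-23). SPARC, a matricellular protein, was at 40.1 and 33.9 CPM against 86.1 and 87.5 CPM (log2 fold change -1.23 ± 0.08 SE, adjusted p = 3.4e-16). TNC (tenascin C), a glycoprotein of developing and injured tissue, went strongly the other way, at 149 and 169 CPM against 12.9 and 11 CPM (log2 fold change 3.73 ± 0.09 SE, adjusted p = 3.2e-26). Control medium, at 50.7 and 47.5 CPM, lay between the media for TNC. Laminins, a separate list, were split, with 2 higher and 2 lower of 8. The laminin chain LAMC1 was lower (2.95 and 2.74 against 12 and 12.5 CPM, log2 fold change -2.11). LAMA2 (3.33 and 2.06 against 1.42 and 0.659 CPM, log2 fold change 1.35) and LAMA4 (2.31 and 2.51 against 0.897 and 1.10 CPM, log2 fold change 1.26) were higher. Integrins, the receptors of the matrix, had 3 higher and 5 lower members of 18. ITGA3, a laminin receptor chain, was at 6.28 and 7.65 CPM against 45.8 and 46.3 CPM (log2 fold change -2.72 ± 0.15 SE, adjusted p = 1.1e-16). ITGA5, the fibronectin receptor chain, was at 39.8 and 38.3 CPM against 132 and 133 CPM (log2 fold change -1.77 ± 0.07 SE, adjusted p = 7.1e-22). ITGA1, a collagen receptor chain, was higher (545 and 569 CPM against 273 and 266 CPM, log2 fold change 1.05, SE 0.05, edgeR adjusted p = 6.3e-20).

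Collagens were split, with 6 higher and 5 lower of 20. COL1A1, the larger chain of type I collagen, was at 31.9 and 28.4 CPM with E15.5-mSGcm and 151 and 142 CPM with E8-cDRGcm (log2 fold change -2.28, SE 0.09, edgeR adjusted p = 4.2e-19). COL1A2, its partner chain, was at 10.8 and 14.3 CPM against 1.94 and 2.64 CPM (log2 fold change 2.45 ± 0.22 SE, adjusted p = 4.0e-12). The 2 chains of type I collagen thus differed in opposite directions. COL1A1, COL1A2 and the collagen COL3A1 are also fibroblast markers, a list of which 5 of 7 members were higher and 1 was lower. DCN (decorin), a small proteoglycan, was at 13.7 and 13.5 CPM against 1.35 and 2.05 CPM (log2 fold change 2.99 ± 0.23 SE, adjusted p = 4.6e-14). PDGFRA, a growth factor receptor, was at 8.58 and 11.1 CPM against 0.748 and 0.952 CPM (log2 fold change 3.52 ± 0.30 SE, adjusted p = 9.0e-13). The summed CPM of the list was 477 and 487 with E15.5-mSGcm and 464 and 448 with E8-cDRGcm, and none of the 7 was at 0 in any library. The part of other cell types in these values was not tested.

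Neuronal genes differed gene by gene. Sodium, calcium and potassium channels had 19 higher and 19 lower members of 73, with a median of 0.08, and held 1.29% of the squared distance, 2.96 times their share of genes. KCNG1, a modulatory potassium channel subunit, was at 9.86 and 9.6 CPM with E15.5-mSGcm and 81.5 and 86 CPM with E8-cDRGcm (log2 fold change -3.11, SE 0.10, edgeR adjusted p = 4.1e-24). KCNK3, a leak channel for potassium, was at 73.5 and 89.1 CPM against 16.9 and 14.9 CPM (log2 fold change 2.36 ± 0.10 SE, adjusted p = 1.3e-21). CACNG4, an auxiliary calcium channel subunit, was at 53.3 and 57 CPM against 11 and 11.6 CPM (log2 fold change 2.28 ± 0.10 SE, adjusted p = 5.1e-21). KCNG1 was lower and the other 2 channel genes higher. Axon guidance genes had 10 higher and 16 lower members of 57. SEMA3A, a repulsive semaphorin, was at 226 and 237 CPM against 78.9 and 80.0 CPM (log2 fold change 1.54 ± 0.06 SE, adjusted p = 8.1e-23). UNC5B, a netrin receptor, was at 107 and 112 CPM against 250.5 and 239 CPM (log2 fold change -1.16 ± 0.06 SE, adjusted p = 9.0e-20). RTN4R, the Nogo receptor, belongs to the study's list of olfactomedin-related genes, of which 9 were higher and 5 lower of 24 tested. It was at 2.56 and 2.63 CPM against 17.1 and 18 CPM (log2 fold change -2.75 ± 0.19 SE, adjusted p = 3.3e-15). SEMA3A, UNC5B and RTN4R had been picked among members without overlap between the media. VGF, a neuropeptide precursor, was lower with E15.5-mSGcm, at 905 and 889 CPM against 5664 and 6262 CPM (log2 fold change -2.73 ± 0.05 SE, adjusted p = 4.2e-31). It had the lowest adjusted p of the genes named here. PCSK1, which cleaves prohormones, was lower too (7.05 and 7.77 against 29.9 and 29.3 CPM, log2 fold change -1.99), and CPE, a carboxypeptidase of the same route, was higher (569.8 and 579 against 309 and 315 CPM, log2 fold change 0.88). Of 8 sensory neuron markers 3 passed the filter, of which 1 was higher and 2 lower (1 lower without E15.5-mSGcm replicate 2). PRPH was lower (155 and 159 against 334 and 342 CPM, log2 fold change -1.11) and AVIL was higher (3.97 and 3.77 against 0.598 and 1.245 CPM, log2 fold change 2.05).

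Among protein-coding genes with a mean of at least 50 counts in the higher group, several of the 12 largest differences in each direction belong to none of the classes above. TLR7, a receptor of single-stranded RNA, held 93 and 138 counts with E15.5-mSGcm and 0 and 1 with E8-cDRGcm, a ratio of 377 with a 95% counting interval of 67 to 14953. GPER1, a G protein-coupled estrogen receptor, held 165 and 193 counts against 1 and 2, a ratio of 195 with a 95% counting interval of 66.1 to 949. GPER1 was at 5.2 and 5.2 CPM in control medium, so E8-cDRGcm lay below it and E15.5-mSGcm above it. CYSLTR2, a leukotriene receptor, was at 12.4 and 15.4 CPM with E15.5-mSGcm and 0.0748 and 0.22 CPM with E8-cDRGcm (log2 fold change 6.47, SE 0.38, edgeR adjusted p = 2.9e-17). FOXA2, a forkhead factor, was at 15.4 and 13.9 CPM against 0.299 and 0.22 CPM (log2 fold change 5.77 ± 0.33 SE, adjusted p = 1.3e-17). DPT (dermatopontin), a matrix protein, was at 24.6 and 27.2 CPM against 0.823 and 0.659 CPM (log2 fold change 5.11 ± 0.22 SE, adjusted p = 6.5e-21). RANBP3L held 94 and 225 counts against 1 and 0 (a ratio of 521 with a 95% counting interval of 92.8 to 20625, edgeR adjusted p = 0.00282), and its 2 E15.5-mSGcm libraries differed from each other, at 12 and 25.7 CPM. The call of RANBP3L was lost without E8-cDRGcm replicate 1 (edgeR adjusted p = 0.0805) or replicate 2 (0.0909).

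On the lower side HSPA6, an inducible HSP70 chaperone, held 0 and 2 counts with E15.5-mSGcm and 92 and 113 with E8-cDRGcm, a ratio of 62.8 with a 95% counting interval of 17.2 to 522, in favour of E8-cDRGcm. PAQR5, a membrane progestin receptor, was at 0.128 and 0.343 CPM with E15.5-mSGcm and 6.51 and 9.16 CPM with E8-cDRGcm (log2 fold change -4.96, SE 0.42, edgeR adjusted p = 1.2e-12). TM6SF1 was at 0.384 and 0.914 CPM against 16.7 and 18.1 CPM (log2 fold change -4.69 ± 0.28 SE, adjusted p = 6.1e-17). CCNA1, a cyclin A of the germ line, was at 0.384 and 0.457 CPM against 6.36 and 6.59 CPM (log2 fold change -3.91 ± 0.38 SE, adjusted p = 4.3e-11). CORO1A, an actin-binding coronin, was at 4.74 and 2.28 CPM against 39.1 and 39.2 CPM (log2 fold change -3.50 ± 0.16 SE, adjusted p = 2.8e-20). For PAQR5 and CORO1A the E8-cSGcm libraries, at 5.69 and 6.3 CPM for the former and 39.4 and 37 CPM for the latter, were near those of E8-cDRGcm. For CCNA1 they were at 1.12 and 1.4 CPM, nearer to E15.5-mSGcm.

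Set side by side against the shared control libraries, the classes that differed between both media differed in which medium had moved. The NF-kB list, the histones and the cytokines had medians of 1.41, -2.35 and 1.23 for E15.5-mSGcm and of 0.21, -0.18 and 0.00 for E8-cDRGcm. The cytokine median of 0.00 stands for 9 genes, several with few counts, and does not mean that no cytokine moved with E8-cDRGcm. IL11 was higher there than in control medium, and CX3CL1 and CSF1 were lower (log2 fold changes -0.35 and -0.46). The stress response, amino acid synthesis and NRF2 lists had medians of 0.73, 0.89 and 0.71 for E8-cDRGcm and of -0.13, -0.15 and -0.00 for E15.5-mSGcm. Mitochondrially encoded mRNAs, sterol synthesis, ER chaperones and mitosis lay on opposite sides of control, with medians of 0.69, 0.35, 0.28 and -0.27 for E15.5-mSGcm and of -0.53, -0.25, -0.18 and 0.31 for E8-cDRGcm. NRF2 targets, which protect against oxidants, had 11 lower and 1 higher members of 21 between the media, among them TXNRD1 (284 and 267 against 505 and 492 CPM, log2 fold change -0.86) and FTH1 (346 and 341 against 629 and 658 CPM, log2 fold change -0.90).

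**Figure D5:**
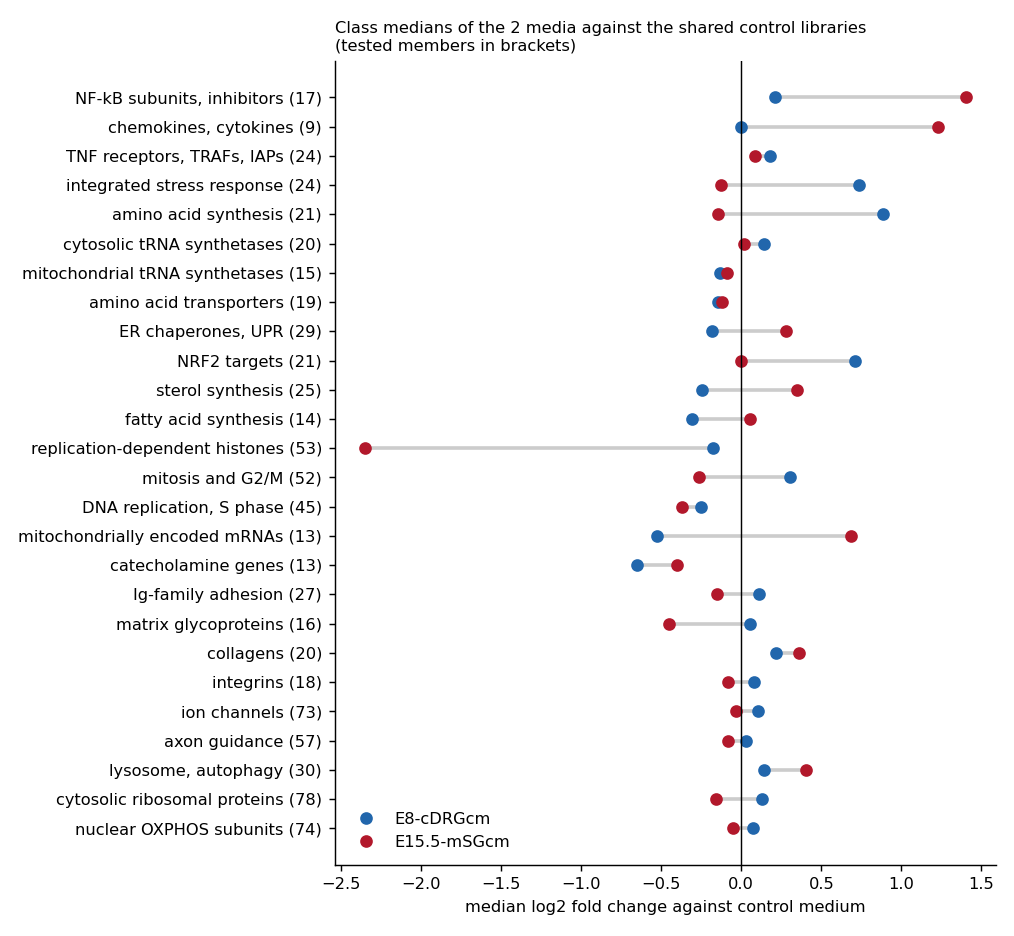
Median log2 fold change against control medium (x axis) of 26 gene classes for E8-cDRGcm (blue) and E15.5-mSGcm (red), joined by a grey line. Both media are set against the same 2 control libraries. The longest line is that of the histones, from -0.18 to -2.35, and amino acid transporters have nearly equal medians.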

How the data were processed

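Bulk RNA-seq was made from IGR-N91 aggregates with the SMARTer Stranded Total RNA-Seq kit for pico input. Per the submitters' processing notes, reads were converted with bcl2fastq 2.17.1.14, trimmed with cutadapt 1.9.1, mapped with TopHat2 2.1.0 and counted per gene with HTSeq 0.11.3. The deposited table holds raw counts of 60676 Ensembl identifiers, made by the authors without normalization. The study's methods name hg19 and the processing notes hg38, so no gene coordinates of the counted genes are given. Strand setting and annotation release are not given in the sources used here. Symbols came from the GENCODE v44lift37 annotation, which named 58611 identifiers. Promoter windows came from RefSeq on GRCh38.p14.

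All 8 libraries entered 1 edgeR 4.0.16 quasi-likelihood model in R 4.3.3 with the group as factor, after filterByExpr (16680 genes kept) and TMM scaling. P-values were adjusted by Benjamini-Hochberg over all tested genes. Calls required an adjusted p below 0.05 and a fold of at least 1.5. Log2 CPM values for distances used a prior count of 2. Ratios of genes with 1 to 3 counts in 1 group carry a 95% interval for counting error only. The fit was tested on simulated data. Libraries with equal replicate numbers did not deviate together (correlation of deviations -0.034 between E8-cDRGcm and E15.5-mSGcm), so no block was used.

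The contrast, the 52 gene lists and the tests were chosen with earlier results of these data known. Named genes were the 12 with the highest and the 12 with the lowest log2 fold change among called protein-coding genes. These needed at least 50 mean counts in the higher group and no overlap of the 4 libraries. Added to them were up to 4 called members per list by lowest adjusted p, also only those without overlap. The NOR and MES factors, the marker lists and the 5 genes with the largest part of the squared distance were named as well. A gene named for being listed at 0 or at the end of a range lies outside this rule. Some genes that the rule names are not reported here. Alternatives were DESeq2 1.42.0, RLE size factors, other prior counts and count filters, only the 4 libraries compared, a replicate block, libraries thinned to the smallest total, leaving out each library, and a correction for GC content and length that was chosen after seeing the data.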

Additional observations from a re-analysis of the deposited data

How the results depend on the processing

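E15.5-mSGcm and E8-cDRGcm were the most distant pair under each of 10 settings, at 0.874 with a prior count of 0.5, 0.698 with a prior count of 5, 0.632 with a filter of 10 counts in every library, 0.754 after thinning to the smallest total, and 0.808 to 0.834 with 1 library left out. Prior counts and filters act on low genes by construction, and the other causes were not tested. By adjusted p alone 4297 genes were higher and 4470 lower. Counts of higher and lower calls were 1879 and 1869 with DESeq2, 2015 and 2497 with a filter of 1 count in total, 1721 and 1739 with a filter of 10 counts in every library, and 1934 and 1957 after thinning. With 1 library left out, where the spread of the lone library is assumed to equal that of the other groups, they were 1898 to 2155 higher and 2084 to 2128 lower. The replicate block gave 2165 higher and 2177 lower and changed no call of the 208 named genes, and the GC and length correction gave 2231 and 2064. No named gene reversed, and of 189 called named genes 21 lost the call under at least 1 alternative, among them RANBP3L, MCM3, LAMA2, LAMA4 and LAMB1. With the filter of 10 counts in every library 174 of the 208 named genes kept their result. The rest, among them CCL2 and ICAM1, did not pass that filter and were not compared under it. Of 50 class counts of at least 5 members, 38 stayed within 1.5 times of the reported count under every alternative. With the filter of 10 counts, which leaves out genes near 0 in 1 medium, lncRNA calls went from 387 higher and 102 lower to 221 and 54, lower pseudogenes from 161 to 107, the union of NF-kB, cytokine and TNF receptor lists from 20 higher and 8 lower to 13 and 4, higher cytokines from 7 to 2, higher fibroblast markers from 5 to 3 and lower adhesion molecules from 7 to 4. DESeq2 gave 57 lower lncRNA genes and 96 higher and 100 lower pseudogenes. Thinning gave 4 higher cytokines, 4 lower adhesion molecules and 3 lower collagens instead of 5. Lower OXPHOS subunits were 9 with the filter of 1 count and 2 with the GC and length correction instead of 5, and that correction left 5 of 8 lower metalloproteases. The lower depth of the E15.5-mSGcm libraries limits genes below about 1 CPM most.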

Other observations

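Lysosome and autophagy genes leaned to E15.5-mSGcm, with 11 higher and 2 lower of 30 and a median log2 fold change of 0.24. CTSA, a lysosomal carboxypeptidase, was at 48.6 and 40.6 CPM with E15.5-mSGcm and 17.7 and 16.8 CPM with E8-cDRGcm (log2 fold change 1.36, SE 0.10, edgeR adjusted p = 5.0e-14). ATP6V0A1, a subunit of the proton pump of vesicles, was at 108 and 113 CPM against 66.5 and 63.6 CPM (log2 fold change 0.77 ± 0.06 SE, adjusted p = 8.4e-13). CTSB, a cysteine protease, was lower (234 and 228 against 356 and 356 CPM, log2 fold change -0.62). Of 22 tested interferon-stimulated genes 5 were higher and 1 was lower, with a median of 0.39. That is 27.3% called, against 26.2% over all tested genes, so the list was called at about the general rate. The lower call was lost under 9 of 13 alternatives, among them those without either E15.5-mSGcm library or E8-cDRGcm replicate 1. SAMD9, an antiviral factor, was at 18.2 and 19.3 CPM against 5.61 and 5.13 CPM (log2 fold change 1.80 ± 0.16 SE, adjusted p = 1.7e-12). Control medium held 14.1 and 12.3 CPM of SAMD9, between the media. Among 9 tested genes of MHC class I presentation, 3 were higher and 1 was lower (0 without E15.5-mSGcm replicate 2). The higher ones were PDIA3, the ER chaperone CALR, which is also on the ER list above, and the peptidase ERAP1. ERAP1 was at 21.7 and 24.7 CPM against 13.2 and 10.9 CPM (log2 fold change 0.94). On this list 7 members, among them HLA-C, HLA-E, TAP1 and TAP2, were listed at 0 in all 8 libraries and could not be compared.

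Ligands and factors of growth signalling moved singly. TGFB1 was at 169.9 and 173 CPM with E15.5-mSGcm and 317 and 334 CPM with E8-cDRGcm (log2 fold change -0.92, SE 0.05, edgeR adjusted p = 1.1e-17). LTBP1, a latent TGF-beta binding protein, was higher (219.8 and 239.9 against 102 and 98.9 CPM, log2 fold change 1.19). The AP-1 factor JUNB was higher (75.3 and 74.3 against 41.4 and 41.1 CPM, log2 fold change 0.86), opposite to FOSL1 and FOSL2. The heat shock cochaperones DNAJB1 (67.4 and 65 against 158 and 162 CPM, log2 fold change -1.27) and BAG3 (52.7 and 50.7 against 102 and 99.8 CPM, log2 fold change -0.97) were lower, while DNAJA1 was higher (364 and 374 against 244 and 242 CPM, log2 fold change 0.60), with a call that some settings ended. Metalloproteases had 7 higher and 8 lower members of 32, from MMP16 (501 and 544 against 263 and 240.4 CPM, log2 fold change 1.06) to ADAM15 (31.5 and 35.9 against 75.3 and 74.3 CPM, log2 fold change -1.15). HOX genes, which mark position along the body axis, had 6 lower and 1 higher of 16, and HOXC6 (32.2 and 34.4 against 13.9 and 15 CPM, log2 fold change 1.203) and HOXC8 (25.5 and 26.7 against 45.5 and 44 CPM, log2 fold change -0.78), neighbours in 1 cluster, differed in opposite directions.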
